A study of Mus musculus with 6 samples.

Results

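Transcripts of 10 Krüppel-like factor genes, *Klf2*, *Klf3*, *Klf4*, *Klf5*, *Klf6*, *Klf7*, *Klf9*, *Klf10*, *Klf13* and *Klf15*, were measured in the epithelium of the embryonic small intestine with and without *Tcf7l1*. The genes were chosen by symbol out of 23366 genes in the count tables. All 10 passed the filter on low counts and are among the 12501 genes tested. The other 7 genes of the family in the tables are described after them. Of the 10, *Klf6* was the only one called, about 1.92-fold higher in the mutants, while *Klf5*, the other abundant member, differed between the groups by less than its replicate spread.

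The 6 libraries came from E13.5 (embryonic day 13.5) epithelium, 3 of them from wild type embryos and 3 from embryos of the genotype Shh-cre-egfp:Tcf7l1 lox/lox, called mutants here. In the mutants, Cre recombinase is made from the *Shh* locus, which is active in the gut epithelium, and deletes a floxed part of *Tcf7l1*, a transcription factor that represses WNT target genes. Each library was made from 500 EpCAM-positive cells sorted from small intestine digested with collagenase, and neither group was treated. No library analysed here carries Cre with *Tcf7l1* intact, so the Cre allele, which also takes the place of a copy of *Shh*, and the loss of *Tcf7l1* cannot be told apart. Litter, sex and pooling of the embryos are not given in the sources used here, so p-values measure the spread between these libraries, which may be in part technical.

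The total count per library lay between 18216537 and 20397278. *Tcf7l1* had normalized counts of 475, 473 and 363 in wild types 1, 2 and 3 and of 41.3, 32.9 and 72.8 in mutants 1, 2 and 3 (log2 fold change -3.16, SE 0.26, edgeR adjusted p = 4.2e-07). *Shh*, which carries the Cre insertion, had 480.2 ± 65.7 in the wild type and 197 ± 22.6 in the mutant libraries (mean ± SD, n = 3, edgeR adjusted p = 6.1e-05). *Xist*, made from the inactive X chromosome of female cells, had 0 counts throughout the wild type group and at least 237 normalized counts in each mutant library, and 4 Y-linked genes had 0 counts in every mutant library. A difference of sex can therefore not be told apart from genotype in any result below. All 8 epithelial markers were tested, and 4, *Cdh1*, *Krt18*, *Cdx2* and *Shh*, were called lower, against 5.83% of all tested genes. *Shh* is the locus of the Cre insertion, so its call cannot be read as a change of the epithelium. It is included in the counts and the median that follow. An adjusted p under 0.01 in edgeR was reached by 6 of the 8, against 14.9% of all genes. The log2 fold change was below 0 for 6 and above 0 for 2, *Epcam* (0.25) and *Cldn7* (0.24), with a median of -0.43. These opposite changes partly cancel in the summed normalized counts of all 8. The sums were 130420 to 141208 in the wild type and 133642 to 137317 in the mutant libraries. Fewer cells of a type and less RNA in each cell cannot be told apart in such libraries. Of 8 endothelial markers none passed the filter on low counts, and *Cdh5*, *Kdr*, *Tek*, *Emcn* and *Cldn5* had 0 counts throughout. Of 8 blood markers *Ptprc*, *Hbb-bh1* and *Hba-a1* had 0 counts throughout, and the summed normalized counts were 21.8 to 37.2 in the wild type and 5.31 to 9.93 in the mutant libraries, and those of 7 mesenchyme markers 129 to 205 and 119 to 501. *Acta2*, of smooth muscle, made up most of the highest mesenchyme sum, with 488 in mutant 3. Over all libraries its log2 fold change was 1.52 (edgeR adjusted p = 0.014), and its groups overlapped. *Col3a1* and *Pdgfra* went the opposite way. *Col3a1* was at 42.1, 37.2 and 10.4 in the wild type and 8.27, 6.38 and 4.41 in the mutant libraries (log2 fold change -2.21, edgeR adjusted p = 0.026). *Pdgfra*, too low to be tested, was at 5.58 to 21.5 and 0 to 1.10. *Col1a2*, also too low, was at 0 to 4.74 in the wild type and 0 to 10.6 in the mutant libraries. Of 8 genes of neural crest and neurons, 5 were tested and 0 were called by edgeR or by DESeq2. Of the 5, 0 had an unadjusted p under 0.05 in edgeR, against 40.3% of all tested genes. The part of these markers in the results was not tested.

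Krüppel-like factors are transcription factors that bind GC-rich and CACCC sequences in promoters through a row of C2H2 zinc fingers at the carboxyl end of the protein, and they differ in the remainder of the protein, which recruits activators or repressors. In the adult intestine, KLF5 is known from the dividing cells of the crypt and KLF4 from the differentiated cells of the villus and from goblet cells. KLF3 represses genes through CtBP proteins, and KLF9, KLF10 and KLF13 through the SIN3A corepressor. KLF2, KLF4, KLF6 and KLF10 genes are also quickly switched on by serum, stress and growth factors.

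The shared finger region is shown for *Klf6*, which was called, for *Klf7*, its closest relative, and for *Klf5*, the other abundant member. A search of the coding sequences of an mm9 annotation (GENCODE vM1) found 3 fingers in each of the 10 members, in a stretch of 81 residues that ends 1 to 39 residues before the end of the protein. The coding bases of that stretch are printed from 5′ to 3′, with the codons of the cysteines and histidines that hold the zinc ions in capitals.
Klf6: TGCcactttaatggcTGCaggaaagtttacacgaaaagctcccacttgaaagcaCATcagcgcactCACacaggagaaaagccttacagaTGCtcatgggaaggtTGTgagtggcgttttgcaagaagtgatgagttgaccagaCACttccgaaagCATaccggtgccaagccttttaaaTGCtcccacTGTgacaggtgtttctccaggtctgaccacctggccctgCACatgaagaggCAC
Klf7: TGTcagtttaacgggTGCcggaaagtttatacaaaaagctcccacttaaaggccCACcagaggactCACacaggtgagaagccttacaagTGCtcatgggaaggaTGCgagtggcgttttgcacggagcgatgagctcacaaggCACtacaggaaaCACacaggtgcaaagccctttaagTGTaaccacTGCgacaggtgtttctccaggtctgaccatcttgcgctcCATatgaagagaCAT
Klf5: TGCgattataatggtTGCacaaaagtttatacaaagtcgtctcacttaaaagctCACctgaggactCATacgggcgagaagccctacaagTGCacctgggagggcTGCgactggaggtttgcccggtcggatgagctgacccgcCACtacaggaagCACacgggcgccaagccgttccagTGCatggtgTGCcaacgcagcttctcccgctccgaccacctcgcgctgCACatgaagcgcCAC
Over these 81 residues, *Klf6* and *Klf7* were 95.1% identical and *Klf6* and *Klf5* 83.95%. The 45 pairs of members ranged from 60.5% (*Klf6* and *Klf9*) to 95.1%, with a median of 66.7%. The bases differ more than the residues, at 81.1% identity for *Klf6* and *Klf7* and 70.0% for *Klf6* and *Klf5*. The longest run of identical bases between transcripts of a member and any other KLF or SP gene was 26 bases, in *Klf6* and *Klf7*, well under the read length of 84 bases.

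*Klf6* (ENSMUSG00000000078) lies on the plus strand of chromosome 13, from 5860735 to 5869639 of mm9, and has 4 exons. Its promoter is printed as the one of the called member, from 250 bases before its start to 30 bases after it (chr13:5860485-5860764 of mm9, plus strand). The bases come from RefSeq, whose window on build GRCm38.p6 matched mm9 exactly and once. Capitals mark CTTTGA, the core of the sequence that TCF proteins bind.
Klf6: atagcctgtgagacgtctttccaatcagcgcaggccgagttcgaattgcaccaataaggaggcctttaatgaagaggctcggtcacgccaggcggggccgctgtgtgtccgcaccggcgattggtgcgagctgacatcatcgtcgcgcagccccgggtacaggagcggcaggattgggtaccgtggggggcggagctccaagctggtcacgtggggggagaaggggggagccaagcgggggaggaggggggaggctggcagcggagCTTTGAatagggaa
This match lies on the plus strand and starts at base 17 of the first exon. CTTTGA, the only form searched, was looked for on either strand within 250 bases before and 50 bases after the start. Of the 8 members with a promoter in the RefSeq table, 1, *Klf6*, had it. Over all 27025 promoters 16.2% had it, and 1 of 8 is not above that share. Outside the members, *Klf11*, which was also called higher, had 0 matches. *Sp5*, which was not called, had 2, and *Sp9*, too low to be tested, had 1. The CACCC sequence that the factors themselves bind was found on either strand in 6 of the 8, all but *Klf4* and *Klf6*, and in 56.7% of all promoters. *Klf5* and *Klf10* had no entry in the table. The matches describe letters and do not show binding.

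Levels were compared between genes per length, as RPKM, in which counts are divided by the annotated exon length and by the normalized library size. In wild type libraries *Klf5* had 136 to 190 RPKM and *Klf6* 135 to 155, and these ranges overlapped. *Klf3* (19.0 to 29.8) and *Klf10* (20.8 to 25.4) followed, also overlapping with each other and separated from the genes above and below. *Klf4* (2.94 to 3.71) and *Klf13* (2.54 to 3.23) overlapped, and *Klf7* was below both at 1.19 to 1.98. *Klf15* (0.435 to 0.989) and *Klf2* (0.395 to 0.728) overlapped, and *Klf9* was lowest, at 0.149 to 0.307. In mutant libraries the order had *Klf6* first at 265 to 278 RPKM, apart from *Klf5* at 167 to 168. *Klf10* (24.7 to 30.8) lay above *Klf3* (17.2 to 20.9) without overlap, and *Klf13* (3.10 to 4.16) above *Klf4* (2.36 to 2.82). *Klf7* (1.49 to 1.98), *Klf2* (1.26 to 2.01) and *Klf15* (1.25 to 1.75) overlapped in the mutants, and *Klf9* remained lowest at 0.114 to 0.401. The annotation used here gives *Klf5* 383 and *Klf6* 3263 non-coding exon bases. It is not the gene model of the authors' counts, so that every order between genes given here depends on it, among them that of *Klf5* and *Klf6*. A comparison of 1 gene between groups does not.

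**Figure D1:**
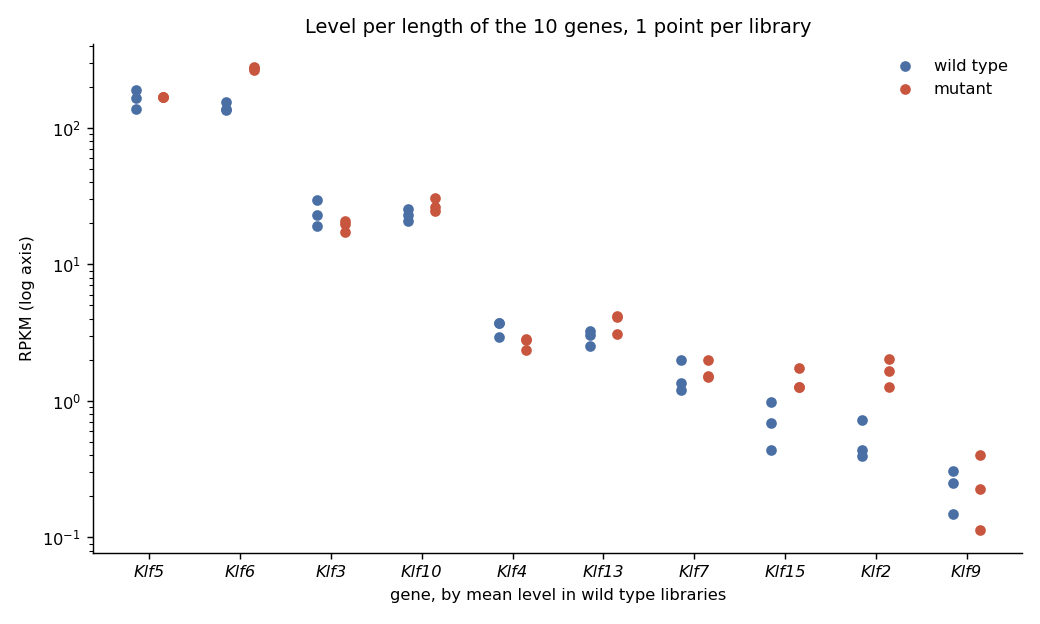
RPKM of the 10 genes on a log axis, ordered by the mean of the wild type libraries, with 1 point for each of 3 wild type (blue) and 3 mutant (red) libraries. The levels span from under 1 RPKM for *Klf9* to over 100 for *Klf5* and *Klf6*, and *Klf6* stands highest in the mutants, at 265 to 278 RPKM.

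Genotypes were compared by the quasi-likelihood test of edgeR, and p-values were adjusted by the Benjamini-Hochberg method across the 12501 genes. A call needed an adjusted p below 0.01, a log2 fold change of 0.5 or more in either direction, and a mean of 50 or more normalized counts. By this rule 1 of the 10 members was called higher, against 2.78% of all tested genes, and 0 were called lower, against 5.83% (8.62% in either direction). With DESeq2 the counts were also 1 and 0. At an unadjusted p under 0.05 in edgeR were 6 of 10 members, against 40.3% of all genes, and at an adjusted p under 0.05 were 2, *Klf2* and *Klf6*, against 28.7%. At an adjusted p under 0.01 was 1, against 14.9%. Wild type and mutant libraries were fully separated in 4 of 10 members, against 43% of all genes. Of these *Klf2*, *Klf6* and *Klf15* were higher in the mutants, as were 20.8% of all genes, and *Klf4* was lower, as were 22.2%. The log2 fold change was above 0 for 8 members and below 0 for 2, with a median of 0.19, where the median of all tested genes was -0.04. With library size as the only scaling the median of all genes shifted by -0.11, and with a correction for gene length by 0.13, and the share of calls that were higher went from 32.3% to 17.3% and 64.3%.

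**Figure D2:**
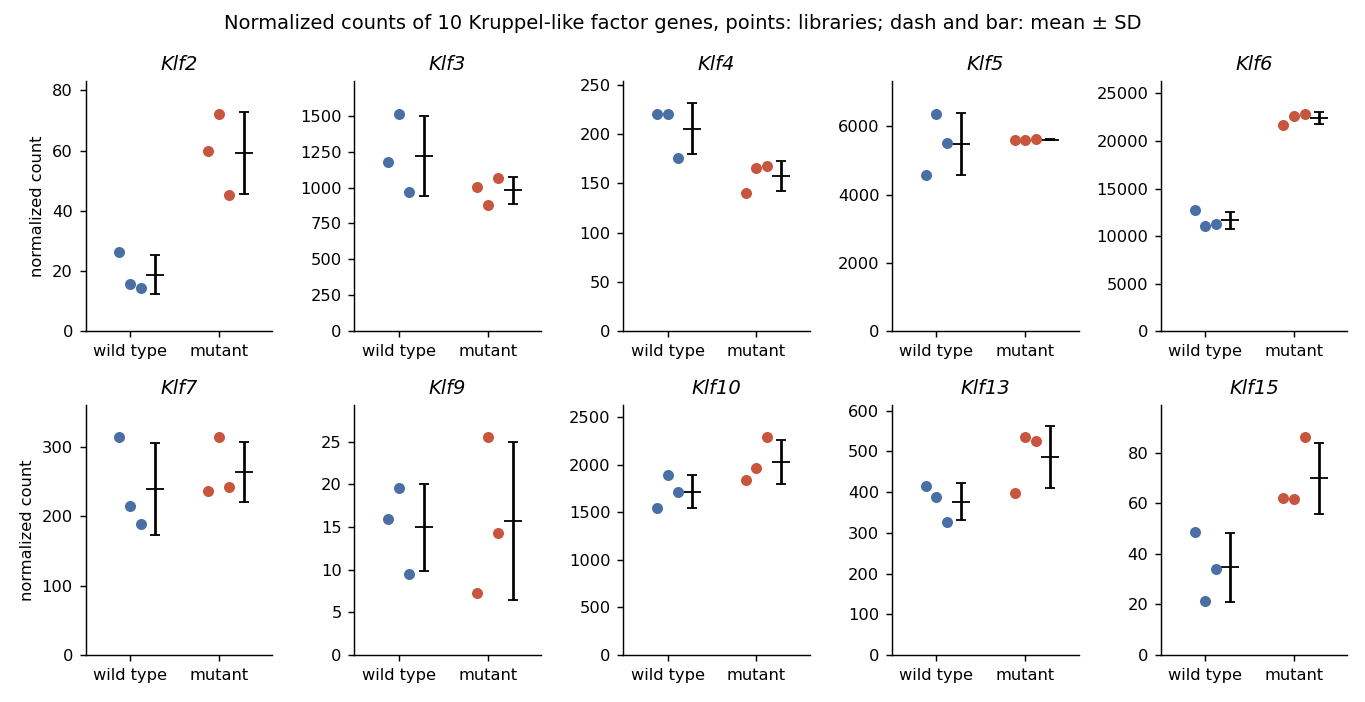
Normalized counts of each member, with 1 point for each wild type (blue) and mutant (red) library and the mean ± SD over 3 libraries beside them, on axes that start at 0. The groups are apart for *Klf6*, *Klf2*, *Klf15* and *Klf4*, and overlap for the other 6 genes.

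Normalized counts of *Klf6*, which encodes a widely expressed activator that responds to injury and growth signals, reached 12699, 11104 and 11225 in wild types 1, 2 and 3, and 21722, 22625 and 22871 in mutants 1, 2 and 3 respectively. Every mutant library lay far above every wild type library, and the spread within each group was small. The means were 11676 ± 888 in the wild type and 22406 ± 605 in the mutant libraries (mean ± SD, n = 3; log2 fold change 0.94, SE 0.07, 95% interval 0.79 to 1.09, edgeR adjusted p = 1.0e-07). Leaving out any 1 library moved the log2 fold change of *Klf6* to between 0.91 and 1.01. It was 0.83 with library size as the only scaling and 1.16 with the gene-length correction, and *Klf6* was called in both. With that correction centred on 0 (chosen after seeing the data), which removes its shift of all genes, the log2 fold change was 1.02. *Klf6* was again called. By size, *Klf6* ranked 97 of the 348 genes called higher. The tested genes whose log2 CPM, centred on the mean of each gene, lay closest to that of *Klf6* over the 6 libraries were *Cpeb2*, *Ckb* and *Areg*, with mean absolute differences of 0.04, 0.05 and 0.06.

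*Klf5* (ENSMUSG00000005148, chromosome 14, 99697910 to 99712624 of mm9), which drives the division of intestinal crypt cells, had normalized counts of 4573, 6374 and 5509 in wild types 1, 2 and 3 and of 5593, 5599 and 5619 in mutants 1, 2 and 3. The mutant libraries were close to one another and lay inside the range of the wild type libraries. The log2 fold change was 0.03 (SE 0.09, edgeR adjusted p = 0.84), with a 95% interval from -0.17 to 0.23, and its direction turned without wild type 1 and when only library size was used for scaling. Within a library, the ratio of *Klf6* to *Klf5* RPKM does not depend on the scaling. It was 1.13, 0.711 and 0.832 in wild types 1, 2 and 3 and 1.58, 1.65 and 1.66 in mutants 1, 2 and 3. The groups did not overlap, and the exact two-sided permutation test of the ratio gave p = 0.1, the smallest that 3 libraries against 3 allow (adjusted over 4 ratios, 0.1). The ratio rests on the same counts as the call of *Klf6*, so its separation is no independent support. The same holds for the ratios of *Klf6* to *Klf7* and of *Klf11* to *Klf10* given below.

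*Klf4* (ENSMUSG00000003032, chromosome 4, 55540013 to 55545347), known for the maturation of goblet cells, had normalized counts of 221, 220.5 and 175 in wild types 1, 2 and 3 and of 141, 166 and 168 in mutants 1, 2 and 3. All mutant libraries were lower than all wild type libraries, with a narrow gap between wild type 3 and mutant 3. The difference did not pass the test (log2 fold change -0.38, SE 0.20, edgeR adjusted p = 0.17). The ratio of *Klf5* to *Klf4* RPKM was 36.8, 51.4 and 55.8 in the wild type and 70.8, 60.1 and 59.6 in the mutant libraries (exact permutation p = 0.1, also after adjustment). Of 6 tested genes of goblet cells, 2 were called lower, *Agr2* (log2 fold change -2.27) and *Fcgbp* (-0.94), where 5.83% of all genes were. DESeq2 called 3 of the goblet genes lower, and 4 of 6 had an unadjusted p under 0.05 in edgeR, against 40.3% of all genes.

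*Klf2* (ENSMUSG00000055148, chromosome 8, 74842932 to 74845555), best known as a factor of quiet endothelial cells and T cells, had normalized counts of 26.2, 15.8 and 14.2 in wild types 1, 2 and 3 and of 59.9, 72.3 and 45.3 in mutants 1, 2 and 3. The groups did not overlap, and the means were 18.7 ± 6.50 and 59.1 ± 13.5. This was the largest fold change among the members, 3.14-fold (log2 fold change 1.65, SE 0.47, 95% interval 0.66 to 2.64), but the adjusted p was 0.015 in edgeR's quasi-likelihood test and the mean count over all libraries was under 50, so *Klf2* was not called. With DESeq2 its adjusted p was 0.0062 and with no filter on low counts 0.0084, and over all alternatives it lay between 0.0062 and 0.075. Summed normalized counts of the 8 endothelial markers were 2.79 to 12.3 in the wild type and 0 to 21.7 in the mutant libraries, with 5 of the 8 at 0 in all libraries, and their part in the level of *Klf2* was not tested.

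*Klf7* (ENSMUSG00000025959, chromosome 1, 64076021 to 64168856), a factor of developing neurons and the closest relative of *Klf6*, had normalized counts of 189 to 313 in the wild type and 236 to 313 in the mutant libraries, ranges that overlap almost wholly (log2 fold change 0.14, 95% interval -0.31 to 0.59, edgeR adjusted p = 0.65). Of its exon bases 39.4% are also covered by exons of *Gm13748* and *Gm17427* on the other strand, and whether reads were counted by strand is not given in the sources used here. The ratio of *Klf6* to *Klf7* RPKM was 78.1, 100.1 and 115 in the wild type and 178, 139 and 182 in the mutant libraries (exact permutation p = 0.1, also after adjustment). None of the other members has exons of another annotated gene over its own on the opposite strand.

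Of the members that act as repressors, *Klf3* (ENSMUSG00000029178, chromosome 5, 65194628 to 65221368) had normalized counts of 1176, 1514 and 969 in wild types 1, 2 and 3 and of 1002, 878 and 1064 in mutants 1, 2 and 3. The groups overlapped through wild type 3 (log2 fold change -0.31, SE 0.14, edgeR adjusted p = 0.10). Without wild type 2 the log2 fold change was -0.13 and without wild type 3 it was -0.44 (adjusted p = 0.015). *Klf10* (ENSMUSG00000037465, chromosome 15, 38221219 to 38230464), induced early by TGF-beta, had 1549, 1889 and 1718 in the wild type and 1841, 1970 and 2290 in the mutant libraries. These ranges overlapped by 1 library on each side, and the log2 fold change was 0.24 (SE 0.10, adjusted p = 0.084). With the gene-length correction it was 0.45 (adjusted p = 0.0054), still under the fold needed for a call. With that correction centred on 0 it was 0.31 (adjusted p = 0.035). Without mutant 3, and with no length correction, it was 0.15 (adjusted p = 0.37). *Klf13* (ENSMUSG00000052040, chromosome 7, 71031237 to 71083801), a regulator of lymphocyte and heart genes, had 415, 389 and 326 in the wild type and 398, 534 and 525 in the mutant libraries. Mutant 1 lay inside the wild type range, and the log2 fold change was 0.37 (SE 0.16, adjusted p = 0.098). With the gene-length correction it was 0.59, at an adjusted p of 0.0101 that just missed the limit.

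*Klf9* (ENSMUSG00000033863, chromosome 19, 23215716 to 23241401), which is induced by thyroid hormone and glucocorticoids, was near the limit of detection, with raw counts of 17, 21 and 10 in wild types 1, 2 and 3 and of 7, 24 and 13 in mutants 1, 2 and 3. No difference was detectable at this depth, as the 95% interval of the log2 fold change ran from -1.33 to 1.46. *Klf15* (ENSMUSG00000030087, chromosome 6, 90412570 to 90425232), another glucocorticoid-induced gene and a regulator of amino acid and sugar metabolism in liver and muscle, had normalized counts of 48.7, 21.4 and 34.1 in the wild type and of 62.0, 61.6 and 86.1 in the mutant libraries. The groups did not overlap, and the log2 fold change was 1.01 (SE 0.41, 95% interval 0.15 to 1.87). It did not pass the test (edgeR adjusted p = 0.074), and without wild type 2 the log2 fold change was 0.75.

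**Figure D3:**
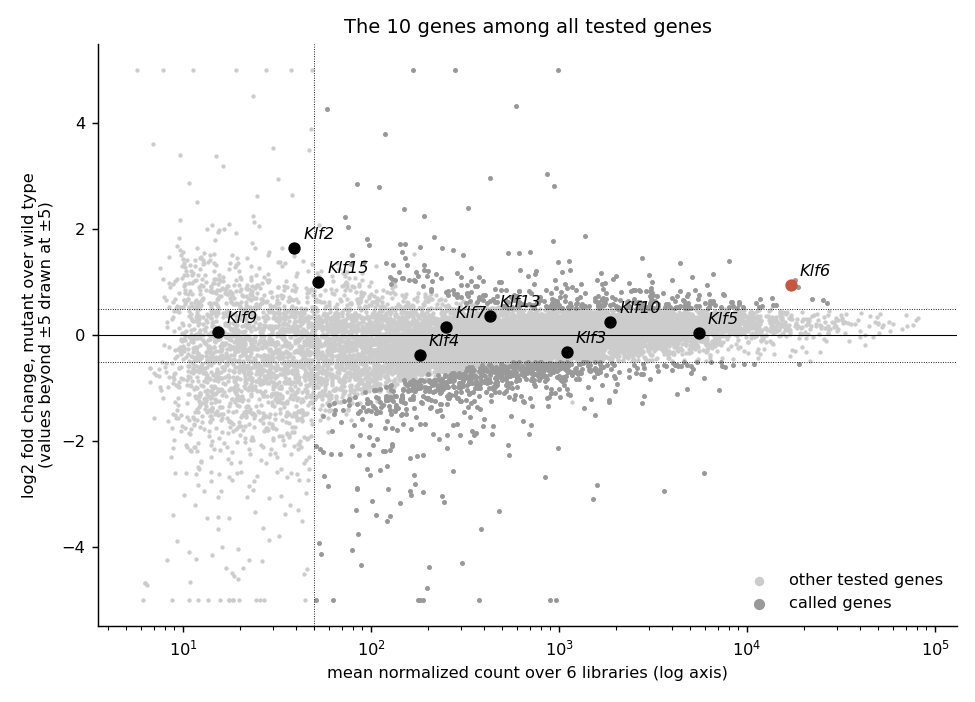
Log2 fold change of mutant over wild type against the mean normalized count on a log axis, for all 12501 tested genes, with called genes in darker grey, *Klf6* in red and the 9 members that were not called in black. Dotted lines mark the log2 fold change of 0.5 and the mean count of 50 needed for a call. *Klf6* stands out at a high count, whereas *Klf2* has the largest fold change at a count under 50.

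Among the other 7 KLF genes, 3 had enough counts to be tested, and 1 was called, against 8.62% of all tested genes. *Klf11* (ENSMUSG00000020653, chromosome 12, 25336236 to 25347639), a relative of *Klf10* that also binds SIN3A, had normalized counts of 1885, 1805 and 2004 in wild types 1, 2 and 3 and of 4276, 3909 and 4261 in mutants 1, 2 and 3. The groups were far apart, and *Klf11* rose 2.19-fold (log2 fold change 1.13, SE 0.08, edgeR adjusted p = 5.1e-08), a place of 59 among the 348 genes called higher. The finger regions of *Klf10* and *Klf11* are 86.4% identical in residues. The ratio of *Klf11* to *Klf10* RPKM was 1.10, 0.864 and 1.05 in the wild type and 2.10, 1.79 and 1.68 in the mutant libraries (exact permutation p = 0.1, also after adjustment). *Klf12*, a repressor like *Klf3*, had 61.8, 56.7 and 76.8 in the wild type and 37.2, 13.8 and 12.1 in the mutant libraries. These groups did not overlap, but the difference did not pass (log2 fold change -1.62, SE 0.48, edgeR adjusted p = 0.021), and without mutant 1 it was -2.31 on the log2 scale. *Klf16* had a log2 fold change of 0.09 (adjusted p = 0.85). *Klf1* had 6 to 18 raw counts per library, and *Klf8*, *Klf14* and *Klf17* had at most 9. Of 9 genes of the related SP family, 5 were tested and 0 were called by edgeR or by DESeq2. *Sp2* and *Sp5* had an unadjusted p under 0.05 in edgeR, 2 of 5 against 40.3% of all genes. *Sp2* had a log2 fold change of -0.44 (edgeR adjusted p = 0.038), *Sp1* of -0.01, *Sp3* of 0.11 and *Sp4* of 0.06, and *Sp8* had 0 counts in all libraries. *Sp5*, a known WNT target, had normalized counts of 19.6, 34.4 and 20.9 in the wild type and 42.4, 86.1 and 35.3 in the mutant libraries. The *Sp5* groups were just apart (log2 fold change 1.12, SE 0.49, edgeR adjusted p = 0.095), and without mutant 2 the log2 fold change was 0.64.

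The make-up of the KLF transcripts was described as the share of each gene in the summed RPKM of the 17 KLF genes. That sum was 371, 414 and 378 RPKM in wild types 1, 2 and 3 and 541, 548 and 564 in mutants 1, 2 and 3. The 10 members made up 92.8% to 94.1% of it in the wild type and 89.9% to 91.0% in the mutant libraries. *Klf6* held 36.8% ± 4.55 in the wild type and 49.5% ± 0.68 in the mutant libraries (mean ± SD, n = 3). The share of *Klf5* was 42.0% ± 4.74 and 30.4% ± 0.57, with its own level within the wild type range. *Klf11* held 5.96% ± 0.60 and 9.15% ± 0.47, and *Klf3* 6.15% ± 1.08 and 3.50% ± 0.31. The shares of one library add up to the whole, so that a higher share of 1 gene lowers the others, and they rest on the annotated lengths, in particular that of *Klf5*.

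**Figure D4:**
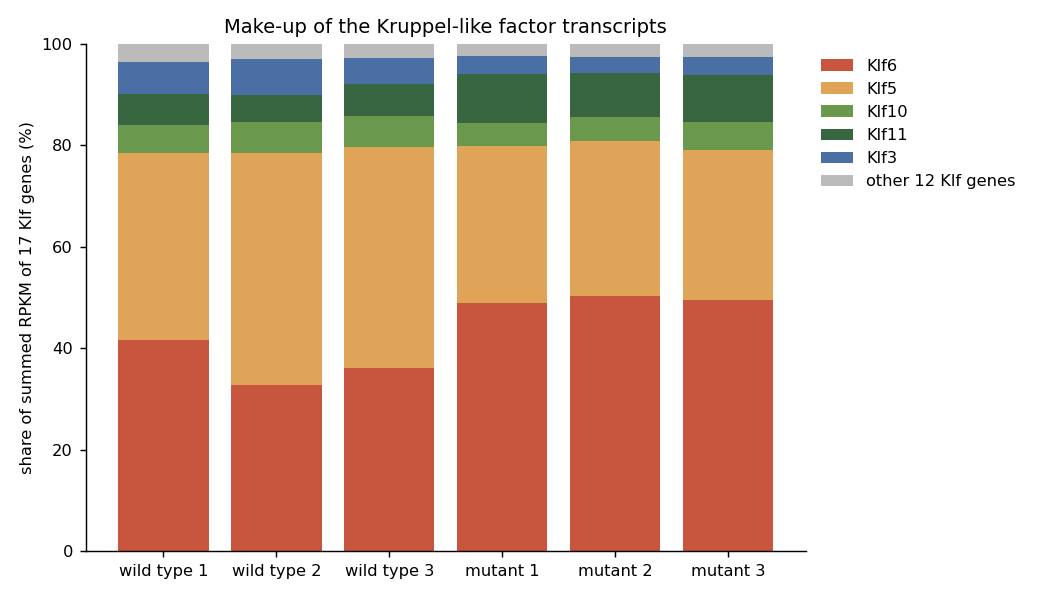
Stacked bars of the share of *Klf6*, *Klf5*, *Klf10*, *Klf11*, *Klf3* and the other 12 KLF genes in the summed RPKM of 17 KLF genes, in percent, for each of the 6 libraries. *Klf6* takes 32.6% to 41.7% in the wild type and 48.9% to 50.3% in the mutant libraries.

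Partners and targets of the factors were taken from lists of known genes. Of 11 corepressors and coactivators, all tested, 0 were called by edgeR or DESeq2 (median log2 fold change -0.02). An unadjusted p under 0.05 in edgeR was reached by 4 of the 11, against 40.3% of all genes. Only *Ctbp1*, the partner of KLF3, had an adjusted p under 0.01 (log2 fold change -0.38, edgeR adjusted p = 0.0037), under the fold needed. Of 6 ubiquitin ligases that act on KLF proteins, such as *Wwp1* and *Fbxw7*, 0 were called by edgeR or DESeq2 (median -0.08). An unadjusted p under 0.05 in edgeR was reached by 2 of the 6, again against 40.3%. Of 16 genes known as KLF targets in the gut or in growth control, 15 were tested, 4 were called higher and 0 lower (2.78% and 5.83% of all genes), with a median of 0.18. Those 4 were *Alpi*, an alkaline phosphatase of enterocytes that KLF4 activates (log2 fold change 0.65), and the mitotic genes *Ccnb1* (0.54), *Cdk1* (0.61) and *Birc5* (0.62). This list of targets is not split by whether a KLF raises or lowers the gene, so its counts and median do not measure KLF activity. *Odc1* (0.37) and, in the other direction, the keratin *Krt19* (-0.49, edgeR adjusted p = 2.8e-05) also had an adjusted p under 0.01 but a smaller fold than a call needs. *Cdkn1a*, the cell cycle inhibitor activated by KLF4 and KLF6, had 2064 ± 55.5 and 1693 ± 182 normalized counts (log2 fold change -0.29, edgeR adjusted p = 0.029). For enterocytes, 13 of 15 genes were tested, with a median log2 fold change of -0.0032. Of the 13, 6 were above and 7 below 0. Among the genes called higher were *Alpi* and the lipid-handling genes *Fabp1* (0.81), *Fabp2* (0.84) and *Apoa4* (0.93), and the keratin *Krt20* (-0.98) was called lower. Over all genes 2.78% were called higher and 5.83% lower. *Apoa1* (-0.0032) and *Apob* (-0.21), which also handle lipids, were not called.

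Inducers of the factors were described in the same way. Of 17 immediate early genes, which like *Klf6* respond within minutes to stress or to the handling of cells, 16 were tested and 1 was called in each direction (median -0.10). An adjusted p under 0.01 was reached by 7 of the 16 and an unadjusted p under 0.05 by 12, against 14.9% and 40.3% of all genes, with 8 of the 16 above and 8 below 0. *Atf3* rose from 11856 ± 1824 in the wild type to 24225 ± 915 in the mutants (mean normalized counts with SD, n = 3; log2 fold change 1.03, SE 0.09, edgeR adjusted p = 9.6e-07), whereas *Jun* fell from 5820 ± 76.3 to 2702 ± 259 (log2 fold change -1.11, SE 0.08, edgeR adjusted p = 7.5e-08). Summed over the list the normalized counts were 111173 to 117947 in the wild type and 127473 to 134694 in the mutant libraries. Genes of high count weigh most in this sum. Besides *Atf3* and *Jun*, *Ier2* had means of 27655 and 35800 (log2 fold change 0.37) and *Fos* of 13105 and 9644 (-0.44). The part of such a response in the level of *Klf6* was not tested. Of 15 genes that respond to TGF-beta, the inducer of *Klf10* and *Klf11*, 13 were tested, with a median of -0.08. *Ctgf* alone was called, higher (log2 fold change 0.97), against 2.78% of all genes called higher. An adjusted p under 0.01 was reached by 2 of the 13, *Ctgf* and *Id2*, against 14.9% of all genes. *Id2* was lower (log2 fold change -0.39, edgeR adjusted p = 0.0032). Of the 13, 5 were above and 8 below 0. The list is not split by whether TGF-beta raises or lowers a gene, so these counts and the median do not measure a response. Of 14 glucocorticoid and clock response genes, relevant to *Klf9* and *Klf15*, all were tested and the median was -0.13. *Sgk1* (1.11), *Nr1d1* (0.62) and *Mt2* (1.55) were called higher, and *Dbp* (-1.02) and *Tef* (-1.33) lower. That is 3 and 2 of 14, against 2.78% and 5.83% of all genes, with 7 of the 14 above and 7 below 0. Among the genes not called, an adjusted p under 0.05 in edgeR was reached by *Nr3c1* (-0.43, adjusted p = 0.022) and *Cebpd* (-1.51, adjusted p = 0.032), both lower.

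**Figure D5:**
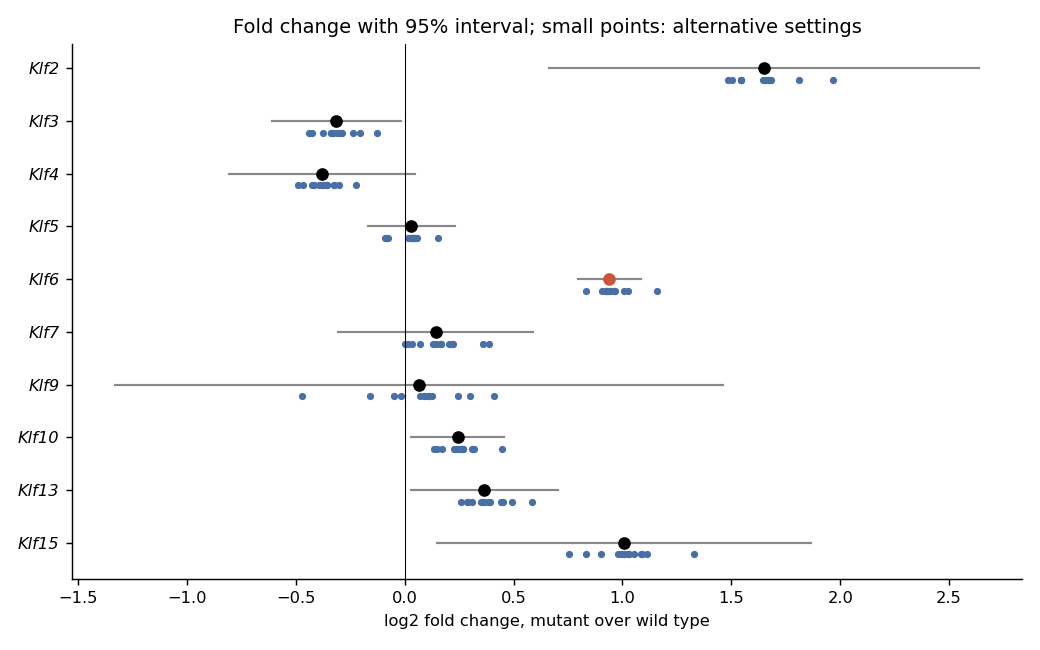
Log2 fold change of mutant over wild type for each member, with the 95% interval as a grey line, the reported value as a large point (*Klf6* in red) and the values under up to 14 alternative settings as small blue points below. All values of *Klf6* lie between 0.83 and 1.16, and those of *Klf5*, *Klf7* and *Klf9* fall on both sides of 0.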

How the data were processed

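RNA-sequencing counts of 6 libraries were used. Per the study's methods and the submitters' processing notes, the authors mapped the reads with STAR 2.5.2b to mm9, counted uniquely mapping reads on a UCSC gene model with featureCounts 1.5.1 and deposited the raw read counts without normalization. The authors' own analysis used DESeq2 1.18.1. PCR reads without molecular identifiers are not independent molecules.

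The quasi-likelihood test of edgeR 4.0.16 (R 4.3.3) was run after the filterByExpr filter and TMM scaling, and p-values were adjusted by the Benjamini-Hochberg method. SE is the log2 fold change over the square root of the F statistic. A mean normalized count of 50 stands for the RPKM of 50 in the study's rule, which was kept as an alternative. RPKM uses exon lengths of GENCODE vM1, which names 90.9% of the genes. Alternatives were DESeq2 1.42.0, other scalings, filters and thresholds, leaving out each library, a replicate block, and removal of a loess trend on exon length (span 0.5). Exact permutation tests used scipy 1.17.1, and figures matplotlib 3.10.9 in Python 3.11.15.

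The rule names all 10 members, the other KLF and SP genes, called genes of each list, and the 3 genes nearest in pattern to the called member with the smallest adjusted p. *Cdkn1a*, *Odc1*, *Krt19*, *Ctbp1*, *Wwp1*, *Fbxw7*, *Acta2*, *Col3a1* and *Pdgfra* were named after their values were seen. The same holds for *Col1a2*, *Epcam*, *Cldn7*, *Apoa1*, *Apob*, *Ier2*, *Fos*, *Id2*, *Nr3c1* and *Cebpd*. Members and lists were chosen with earlier results of these data known. Of the enterocyte list, 1 called gene is not reported here.

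Between libraries of a group the chi-square of the counts was at least 6.30 per gene, where sampling noise gives 1, so no library was a copy of another. This does not show whether the libraries are biological or technical replicates.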

Additional observations from a re-analysis of the deposited data

How the results depend on the processing

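Of 18 alternatives, 17 left the number of members called higher at 1, which was *Klf6* each time, and a minimum absolute log2 fold change of 1 left 0. The number called lower was 0 under all 18. Over 14 refits the 10 members gave 138 values (a filter at a mean of 50 counts removed *Klf2* and *Klf9*), of which 130 kept their direction and their side of the call. The 8 others changed direction and belong to 3 members that were not called. *Klf5* had a log2 fold change of -0.076 when scaled by library size alone and of -0.091 with a length correction centred on 0 (chosen after seeing the data), and between -0.084 and 0.15 with each library left out. *Klf7* lay between -0.00010 and 0.39 with each library left out. *Klf9* was at -0.048 when scaled by library size alone, and between -0.47 and 0.41 with each library left out. The causes were not tested.

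Equal replicate numbers are not stated to share a litter or day. Deviations of same-numbered libraries had correlations from -0.045 to 0.0097 over 3 pairs, and 1 of 3 wild type libraries was closest to its own number, so the numbers were not taken as pairs. With the replicate block 1 member was called higher and 0 lower, and *Klf9* had a log2 fold change of -0.015. Over all genes, the block gave 339 higher and 691 lower calls, against 348 and 729 without it. Counts over all genes moved by more than 1.5 times under library size as the only scaling (200 higher), the length correction (711 higher, 394 lower), without wild type 1 (405 lower), without wild type 2 (406 lower) and without mutant 2 (463 lower), and with other thresholds: a log2 fold change of at least 1 (85 higher, 284 lower), none (902 higher), an adjusted p of 0.05 (1178 lower) and an RPKM of 50 (106 higher, 28 lower). *Klf2* and *Klf9* had mean counts under 50 and *Klf15* just above it, so depth limits what can be said of them.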
